A study of Mus musculus with 6 samples.

Results

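The genes described here belong to families of enzymes known for adding or removing methyl and acetyl groups on histones. With them is the BRD group of bromodomain proteins, which bind acetylated histones. Some members, such as Hdac6, Sirt2 and the mitochondrial sirtuins, act mainly on other proteins. They were taken by symbol from the platform's probe annotation, as lysine demethylases (Kdm), lysine methyltransferases (Kmt, Setd, Ehmt and Suv39), arginine methyltransferases (Prmt), zinc-dependent deacetylases (Hdac), sirtuins (Sirt), lysine acetyltransferases (Kat) and bromodomain readers (Brd). The rule found 79 genes of the 18193 with a probe set of their own. Gene expression was measured on one-colour Affymetrix Mouse Genome 430 arrays in whole testes at postnatal day 21 (P21). One group was homozygous for the Floxed with Neo (Fn) allele of Dazap1, which makes an aberrant DAZAP1 protein with a segment inserted between its RNA-binding domains, and the other was wild type (Wt). There were 3 arrays of each genotype, on a mixed C57BL/6 and 129 strain background. The allele is carried in every cell, so germ cells and somatic cells of the Fn testes both bear it, and the few homozygotes that survive birth are growth retarded.

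Methylation of histone lysines marks chromatin according to the residue: methyl groups on H3K4 go with active promoters, those on H3K36 with transcribed gene bodies, and those on H3K9 and H3K27 with silent chromatin. Acetylation opens chromatin, and bromodomains bind the acetyl groups. In the male germ line these marks are rewritten as cells enter meiosis, later in pachytene spermatocytes, where the X and Y chromosomes are silenced, and again in spermatids, where histone H4 becomes hyperacetylated before protamines replace the histones.

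Values are linear MAS5 signals, intensities of probe sets that the authors had scaled to one level per array. A gene was read by its brightest probe set, and 78 of the 79 members lay at or above the level of signal needed for testing, a geometric mean of 48.0 over the 6 arrays. The exception was Prmt8, an arginine methyltransferase known mainly from brain, with signals of 3.1, 3.4 and 2.9 in Fn testes, against 4.6, 25.9 and 11.6 in Wt testes, all under that level, and no fold is given for it. Signals of different probe sets are not comparable, so only the change of each gene between genotypes is reported. Changes are given on the log2 scale, Fn minus Wt, and were tested across 27022 probe sets in limma, with p-values adjusted after Benjamini and Hochberg. A call means an adjusted p under 0.05.

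Dazap1 itself had signals of 2538, 2735 and 2819.8 in Fn testes, against 4323, 4462 and 5046 in Wt testes, a log2 difference of -0.77 (SE 0.09, limma adjusted p = 6.7e-05). The balance of RNA between testis cell types differed as well. The summed signal of 14 pachytene spermatocyte markers was 22211 to 31296 in Fn and 92459 to 101071 in Wt testes, and that of 14 round spermatid markers was 2324 to 2917 in Fn and 20642 to 24412 in Wt testes. The sum of 11 Sertoli cell markers was 53291 to 55862 in Fn and 32044 to 37274 in Wt testes. Of the pachytene markers 12 of 13 tested fell and 0 rose, and of the Sertoli markers 10 of 11 rose and 0 fell. Of the spermatogonial markers 9 of 10 rose and 1 fell, and of the peritubular myoid markers 6 of 7 rose and 0 fell. Of the Leydig cell markers 4 of 6 rose and 0 fell, but their sums overlapped (7455 to 13690 in Fn and 7031 to 10961 in Wt testes). Of the macrophage markers 3 of 7 rose and 1 fell. In whole testes, fewer cells of a type and less RNA per cell cannot be told apart, and the part of these shifts in the results below was not tested. The paper raised the concern that, through growth retardation, P21 Fn pachytene spermatocytes might be less advanced than P21 Wt ones. For its exon arrays it therefore compared adult Fn testes with P21 Wt testes. Both groups here were at P21, so genotype and stage of development cannot be told apart.

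Of the 78 members tested, 36 (46.2%) rose and 16 (20.5%) fell in Fn testes. Over all 13447 genes tested, 44.9% rose and 24.7% fell, so the members as a whole stood near the background. The measured ratio was over 2-fold in 9 members that were higher and 3 that were lower, against a background of 11.8% of genes higher and 13.9% lower. One of the 9, Hdac9, had a Wt geometric mean under the level for testing and passed through its Fn values alone, so that a rise over 2-fold is not established for it. Without it and Hdac8, in which the same held, 35 of 76 members rose, 16 fell and 8 were higher by over 2-fold. The 3 Fn values lay wholly above or wholly below the 3 Wt values in 58 members (74.4%), where all genes gave 75.6%. The median log2 change of the members was 0.29, and that of all genes was 0.32 on the deposited scale, or 0.17 when each array was centred on its median. On that second scale 5 members, in place of 9, were higher by over 2-fold, and 5 were so without Wt replicate 3. The direction of each of the 52 called members was the same under all 3 other scalings. Across the 3 arrays of a genotype the signal of a tested member varied by 0.886% to 52.2% in Fn and 1.23% to 66.2% in Wt testes (coefficient of variation), with a median of 8.93% in Fn and 9.70% in Wt testes.

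**Figure D1:**
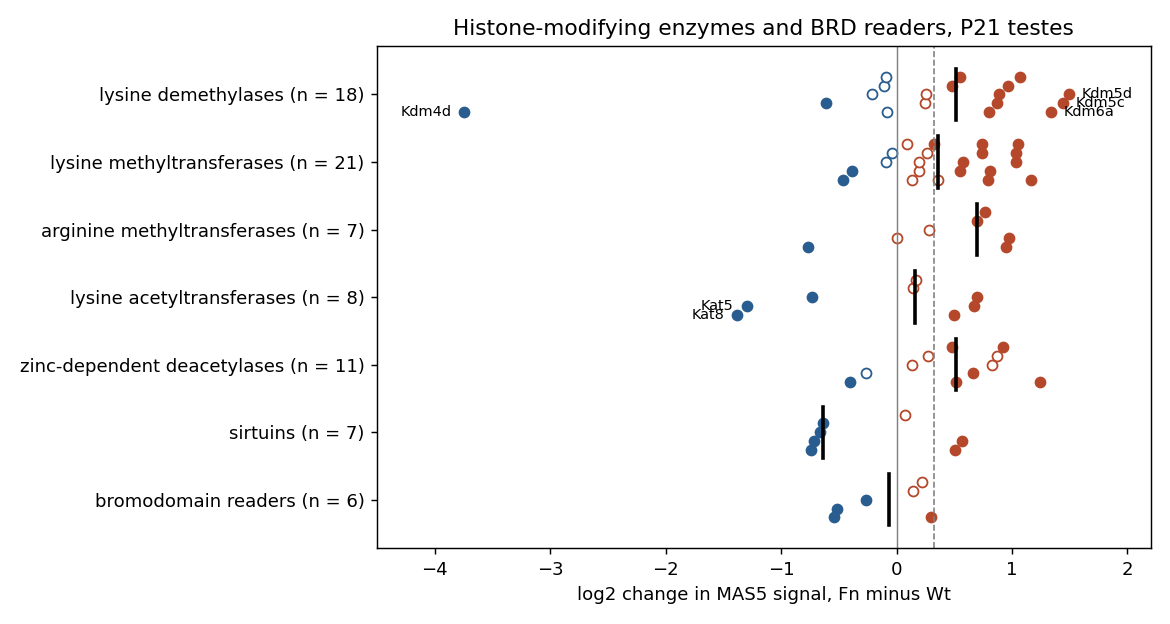
Log2 change in MAS5 signal, Fn minus Wt (horizontal axis), of the 78 members tested, grouped by enzyme class (rows), with 3 P21 arrays for each genotype. Genes called at an adjusted p under 0.05 are filled and the rest open. Black bars give class medians, a solid line marks 0 and a dashed one the all-gene median of 0.32. Kdm4d stands apart at -3.74, and the sirtuins have the lowest class median, -0.64.

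The 3 members that fell by over 2-fold were the demethylase gene Kdm4d and the acetyltransferase genes Kat8 and Kat5, and the 2 with the largest rises, Kdm5d and Kdm5c, are the Y-linked and X-linked copies of one demethylase gene. Promoter windows are shown for these 5 genes, which are the 3 largest falls and the 2 largest rises. Each window is from RefSeq (build GRCm38.p6) and runs from 250 bases before to 50 bases after the annotated transcription start, 5′ to 3′ on the strand of the gene. Capitals mark CCAAT and TGACG, the core of the cAMP response element TGACGTCA, on either strand, so that TGACG on the other strand reads CGTCA.

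Kdm4d (chr9:14500433-14500732, minus strand): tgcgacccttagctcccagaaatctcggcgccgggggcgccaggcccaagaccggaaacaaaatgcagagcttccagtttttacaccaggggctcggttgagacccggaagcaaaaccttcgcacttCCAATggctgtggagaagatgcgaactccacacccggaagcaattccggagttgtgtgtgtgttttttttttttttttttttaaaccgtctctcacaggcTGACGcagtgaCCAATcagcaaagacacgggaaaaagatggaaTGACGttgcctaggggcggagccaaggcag
Kat8 (chr7:127912267-127912566, plus strand, the first of 2 windows): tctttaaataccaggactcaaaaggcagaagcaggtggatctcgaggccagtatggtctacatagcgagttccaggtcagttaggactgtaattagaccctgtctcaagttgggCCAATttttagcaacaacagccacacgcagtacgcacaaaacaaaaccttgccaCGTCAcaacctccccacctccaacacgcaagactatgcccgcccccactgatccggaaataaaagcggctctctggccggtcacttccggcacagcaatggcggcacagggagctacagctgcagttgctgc
Kat5 (chr19:5610045-5610344, minus strand, the first of 2 windows): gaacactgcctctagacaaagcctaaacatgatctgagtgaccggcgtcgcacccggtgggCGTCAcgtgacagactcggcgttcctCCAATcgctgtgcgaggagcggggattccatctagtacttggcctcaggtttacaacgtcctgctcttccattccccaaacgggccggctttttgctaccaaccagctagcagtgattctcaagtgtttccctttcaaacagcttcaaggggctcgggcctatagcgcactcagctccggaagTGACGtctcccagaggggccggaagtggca
Kdm5d (chrY:897538-897837, plus strand): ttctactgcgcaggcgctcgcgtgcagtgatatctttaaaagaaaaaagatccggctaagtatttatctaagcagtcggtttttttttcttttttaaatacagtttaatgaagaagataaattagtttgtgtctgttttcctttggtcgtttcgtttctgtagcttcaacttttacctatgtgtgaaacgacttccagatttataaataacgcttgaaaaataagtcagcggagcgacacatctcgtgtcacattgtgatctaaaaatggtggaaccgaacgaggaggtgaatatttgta
Kdm5c (chrX:152232977-152233276, plus strand): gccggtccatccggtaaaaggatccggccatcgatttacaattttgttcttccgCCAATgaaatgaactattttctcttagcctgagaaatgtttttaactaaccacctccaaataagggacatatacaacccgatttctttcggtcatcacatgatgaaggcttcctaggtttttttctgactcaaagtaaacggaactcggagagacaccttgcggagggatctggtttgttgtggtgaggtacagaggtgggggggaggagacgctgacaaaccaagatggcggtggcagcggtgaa

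The 3 windows of the genes that fell each held TGACG and CCAAT. In Kdm4d, TGACG began at positions -23 and 21 from the start site and CCAAT at -123 and -12. Kdm5c held 1 CCAAT and Kdm5d neither motif. RefSeq gave windows for 66 of the members, 91 windows in all. TGACG was found in 9 of 23 windows of members that fell (39.1%), 7 of 39 of members that rose (17.9%) and 10 of 27 of members not called (37.0%), and in 20.8% of all 32851 windows. CCAAT was found in 39.1% of windows of members that fell, 25.6% of those of members that rose, 55.6% of those not called and 37.4% of all. The full TGACGTCA was found in 0 of the windows of members that fell, in 2 of those of members that rose and in 1.79% of all windows. These are matches of letters in a fixed window, and several windows belong to one gene.

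Among the demethylases, which take methyl groups off histone lysines, 10 of 18 rose (55.6%, where 44.9% of all genes did) and 2 fell (11.1%, where 24.7% of all genes did), with a median log2 change of 0.51. The falls depended on the setting, with 8 higher and 5 lower after median centring, 4 lower after 75th percentile centring and 4 lower by the second brightest probe sets. Kdm4d removes methyl groups from H3K9 and is expressed mainly in the testis. Its signals were 185.2, 195.5 and 193.0 in Fn testes, against 2507, 2360.1 and 2838 in Wt testes. This was a log2 difference of -3.74 (SE 0.12, limma adjusted p = 9.6e-08), or 13.4-fold between geometric means, and it was the largest change of any member. The Fn values were close together and far below all Wt values. Kdm3a, which removes mono- and dimethyl groups from H3K9 and is needed in mice for expression of the genes for transition protein and protamine in spermatids, had signals of 4210.0, 4850.5 and 4067 in Fn testes, against 6716, 6418 and 6914 in Wt testes, a log2 difference of -0.61 (SE 0.08, limma adjusted p = 1.9e-04). In contrast, its relative Kdm3b had signals of 1476, 1356 and 1366 in Fn testes, against 895.2, 699.5 and 695.8 in Wt testes, a log2 difference of 0.88 (SE 0.12, limma adjusted p = 2.3e-04). The second brightest probe set of Kdm3b had a log2 change of 0.36 (adjusted p = 0.11). Of the other H3K9 demethylases, Kdm4b rose by 0.97 (adjusted p = 4.2e-04 from limma) and Kdm4c by 0.55, and Kdm4a had a log2 change of 0.25 (adjusted p = 0.17), or -0.61 (adjusted p = 0.34) with the mean of its probe sets. Of these 6 genes of the KDM3 and KDM4 families 3 thus rose, 2 fell and 1 was not called. In each the Fn values lay apart from the Wt values, as they did in 75.6% of all genes.

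Of the 6 demethylases of H3K4, 4 rose (66.7%, against 44.9% of all genes) and 2 did not pass the test by their brightest probe sets on the deposited scale. The 4 include the X-linked Kdm5c and the Y-linked Kdm5d, and 86.1% of all X-linked genes tested rose. Kdm5c, which is X-linked, had signals of 898.9, 909.9 and 1078 in Fn testes, against 408.0, 401.0 and 270.6 in Wt testes, a log2 difference of 1.44 (SE 0.17, limma adjusted p = 9.5e-05). Its Y-linked counterpart Kdm5d had signals of 342.7, 338.7 and 368.0 in Fn testes, against 130.7, 124.5 and 118.0 in Wt testes, a log2 difference of 1.49 (SE 0.15, limma adjusted p = 3.3e-05). Every Fn array was above every Wt array for both genes. Further probe sets of Kdm5c rose by 1.19 and 1.13, while its dimmest one tested had 0.28 (adjusted p = 0.28), and a second of Kdm5d rose by 0.92. The autosomal Kdm5a, first known as a partner of the retinoblastoma protein, rose by 0.48 (adjusted p = 0.0019 from limma), or by 0.32 (adjusted p = 0.056) after median centring. Kdm5b had signals of 3943, 3915 and 2956 in Fn testes, against 4200.3, 4291 and 3928 in Wt testes, which overlapped, and a log2 change of -0.21 (adjusted p = 0.13), while its second probe set fell by 0.47 (adjusted p = 0.0024) and the brightest did after median centring (-0.37, adjusted p = 0.012). Kdm1b, the flavin-dependent demethylase known for its role in oocytes, had signals of 692.5, 603.2 and 698.7 in Fn testes, against 351.3, 354.4 and 255.5 in Wt testes, a log2 difference of 1.07 (SE 0.16, limma adjusted p = 3.2e-04). Kdm1a, the other flavin-dependent enzyme, had a log2 change of -0.09 with an interval of -0.30 to 0.11 (95%). Its second probe set fell, with -0.22 (adjusted p = 0.040) and every Fn value below every Wt value, and its brightest one fell after median centring (-0.25, adjusted p = 0.042).

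The H3K27 demethylase genes Kdm6a and Kdm6b rose. The X-linked Kdm6a (UTX) had signals of 726.3, 639.7 and 924.6 in Fn testes, against 377.2, 277.9 and 254.6 in Wt testes, a log2 difference of 1.34 (SE 0.19, limma adjusted p = 2.3e-04), and 0.56 (adjusted p = 0.073) with the mean of its probe sets. Kdm6b (JMJD3) had signals of 1998, 1918 and 1817 in Fn testes, against 1347, 1069 and 784.8 in Wt testes, a log2 difference of 0.87 (SE 0.17, limma adjusted p = 0.0017). Kdm7a, which acts on dimethylated H3K9 and H3K27, rose by 0.80 by its brightest probe set and by 0.91 and 0.84 by the other probe sets tested, whereas the mean of all its probe sets, which takes in dim ones, had 0.28 (adjusted p = 0.48). The H3K36 demethylase genes Kdm2a and Kdm2b had log2 changes of 0.26 (adjusted p = 0.077) and -0.11 (adjusted p = 0.25), which did not pass the test. Kdm2b fell after median centring (-0.27, adjusted p = 0.046), and Kdm2a passed without Wt replicate 3 (0.33, adjusted p = 0.042) and had -0.16 (adjusted p = 0.63) with the mean of its probe sets.

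**Figure D2:**
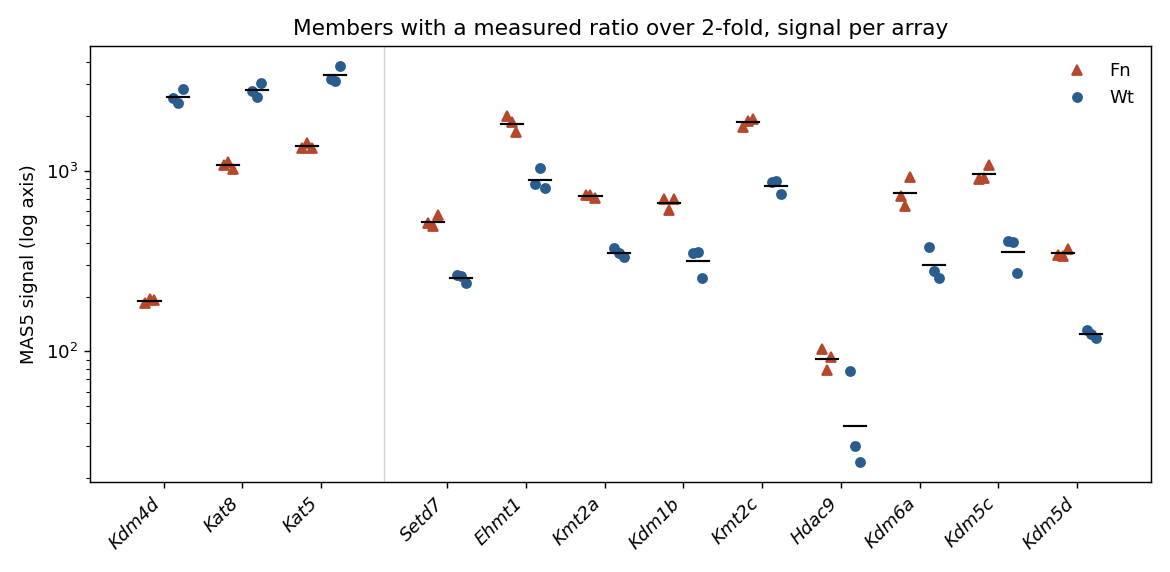
Signals (MAS5, log axis) of the 12 tested members with a measured ratio over 2-fold, in each of 3 Fn arrays (triangles) and 3 Wt arrays (circles) of P21 testes. Dashes give geometric means, and heights are not comparable between genes. The 3 genes left of the line were lower and the 9 right of it higher in Fn testes. The Wt mean of Hdac9 is under the level for testing, 48.0, and its Fn mean is 1.90 times that level, so the size of its rise is not established.

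Of the 5 members on the sex chromosomes, 4 rose and 0 fell. Beside Kdm5c, Kdm6a and Kdm5d, this was the X-linked Hdac6, a deacetylase that acts mainly on tubulin in the cytoplasm, with signals of 6370.4, 5718 and 7016 in Fn testes, against 3481, 3642 and 2950.3 in Wt testes, a log2 difference of 0.92 (SE 0.10, limma adjusted p = 6.5e-05). The other, Hdac8, was dim, with signals of 134.7, 84.8 and 43.4 in Fn testes, against 56.7, 34.2 and 42.1 in Wt testes, which overlapped. Its Wt geometric mean was under the level for testing, and its Fn geometric mean was 1.65 times that level. Hdac8 was not called (adjusted p = 0.11 from limma), and the interval of its log2 change, -0.10 to 1.84, included 0. No least size of a rise is thus established for Hdac8, which passed without Fn replicate 3 (adjusted p = 0.014). The median log2 change of the 4 X-linked members was 1.13, also with Hdac8 read as its Fn mean against the level for testing. That of the 73 autosomal members tested was 0.26. Among all 462 X-linked genes tested, 86.1% rose and 3.25% fell, with a median of 1.01, near that of the X-linked members. The Y-linked Uty, a relative of Kdm6a outside the rule, rose by 1.31 (adjusted p = 1.9e-04 from limma).

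Of the lysine methyltransferases, 11 of 21 rose (52.4%) and 2 fell (9.52%), with a median log2 change of 0.35. All genes gave 44.9% and 24.7%, and their median was 0.32. Of the 2 falls 0 were left without Fn replicate 1, Fn replicate 2 or Wt replicate 3, and 0 in a fit without an intensity trend. The largest rise was that of Kmt2c, which places monomethyl groups on H3K4 at enhancers, with signals of 1737, 1882 and 1938 in Fn testes, against 866.5, 879.3 and 741.2 in Wt testes, a log2 difference of 1.16 (SE 0.11, limma adjusted p = 1.9e-05). Its second probe set rose by 0.81, and the other probe sets tested had 0.70 (adjusted p = 0.073) and 0.99 (adjusted p = 0.083). Kmt2a, the mixed lineage leukaemia gene and also an H3K4 methyltransferase, had signals of 734.8, 736.7 and 705.9 in Fn testes, against 371.5, 350.8 and 331.1 in Wt testes, a log2 difference of 1.05 (SE 0.12, limma adjusted p = 5.8e-05). For both genes every Fn value was above every Wt value. Kmt2b, which is needed in mouse spermatogonia, had signals of 1887, 2171 and 2201 in Fn testes, against 2069, 1901 and 2468 in Wt testes, with a log2 change of -0.04 and an interval of -0.30 to 0.22 (95%). Kmt2d had 0.13 (adjusted p = 0.36), or 0.91 (adjusted p = 0.024) when its probe sets were averaged. Kmt2e, whose protein is thought to lack methyltransferase activity, rose by 0.32 (adjusted p = 0.0078 from limma), or 0.16 (adjusted p = 0.27) after median centring. The other probe sets of Kmt2e tested had log2 changes of 0.20, 0.14, 0.04 and 0.58, none of them called. Setd7, which places a monomethyl group on H3K4 and on other proteins, rose by 1.04 (adjusted p = 1.2e-04). After median centring, Kmt2a, Setd7, Ehmt1 and Kdm1b had log2 changes of 0.89, 0.88, 0.88 and 0.91, under 2-fold, and kept their calls.

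Ehmt1 and Ehmt2 encode GLP and G9a, which work as a heterodimer to mono- and dimethylate H3K9, and they were called in opposite directions. Ehmt1 had signals of 1993, 1851 and 1630.1 in Fn testes, against 846.0, 1028 and 802.3 in Wt testes, a log2 difference of 1.04 (SE 0.13, limma adjusted p = 9.9e-05). Ehmt2 had signals of 3013, 2658 and 4055 in Fn testes, against 4036, 4079 and 5143 in Wt testes, a log2 difference of -0.46 (SE 0.15, limma adjusted p = 0.026). Fn replicate 3 overlapped the Wt arrays, which was the only overlap among the 52 called members, and the second probe set of Ehmt2 had -0.27 (adjusted p = 0.43). The H3K9 trimethylating enzyme gene Suv39h2, which is enriched in the testis, had signals of 712.8, 732.2 and 726.7 in Fn testes, against 496.1, 347.7 and 412.0 in Wt testes, a log2 difference of 0.81 (SE 0.15, limma adjusted p = 0.0010), while its other probe sets tested had 0.21 (adjusted p = 0.26) and -0.06 (adjusted p = 0.92). Setdb2 rose by 0.79 (adjusted p = 1.4e-04 from limma), and Setdb1, which silences retroelements in germ cells, had 0.19 (adjusted p = 0.11), or 0.43 (adjusted p = 0.015) with the mean of its probe sets. The catalytic subunits of the SET1 complexes for H3K4 also diverged. Setd1a had signals of 1218, 1282 and 1352 in Fn testes, against 768.6, 903.8 and 975.3 in Wt testes, a log2 difference of 0.55 (SE 0.12, limma adjusted p = 0.0027). Setd1b had signals of 683.2, 632.1 and 721.1 in Fn testes, against 737.1, 868.0 and 1093 in Wt testes, a log2 difference of -0.39 (SE 0.15, limma adjusted p = 0.046), and -0.39 by its second probe set as well. Kmt5a and Kmt5b, which methylate H4K20, each rose by 0.74, and Setd5 rose by 0.58 (adjusted p = 0.0076), or 0.42 (adjusted p = 0.060) after median centring.

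**Figure D3:**
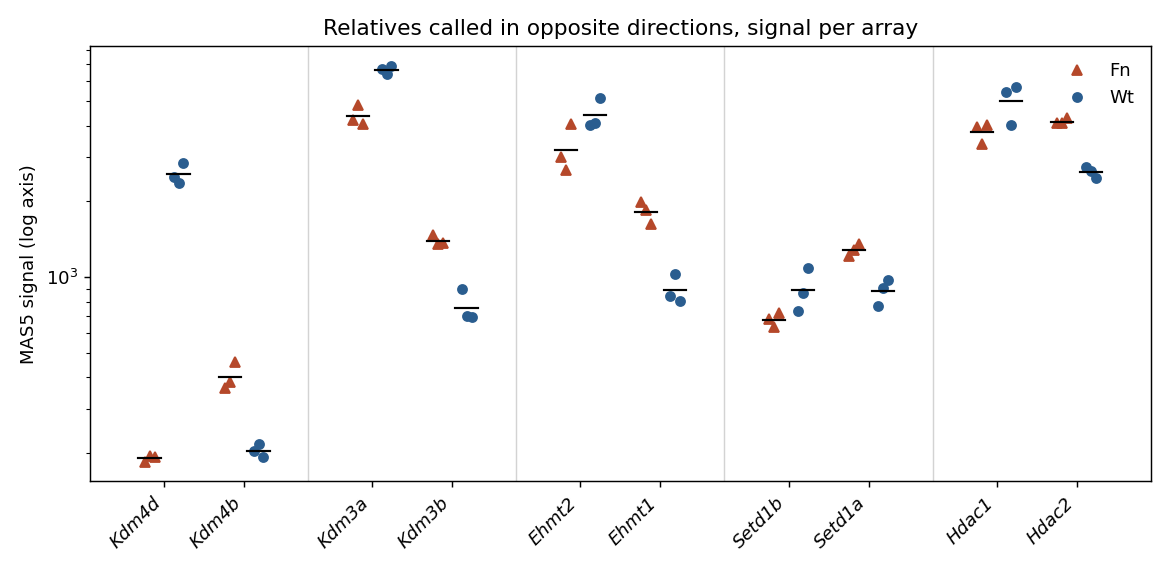
Signals (MAS5, log axis) of 5 pairs of related members that were called in opposite directions, in each of 3 Fn arrays (triangles) and 3 Wt arrays (circles) of P21 testes. Dashes give geometric means, grey lines part the pairs, and heights are not comparable between genes. In each pair the left gene was lower and the right gene higher in Fn testes. The pairs were chosen after their values were seen.

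Of the 7 arginine methyltransferases tested, 4 rose (57.1%, against 44.9% of all genes) and 1 fell (14.3%, against 24.7%), with a median log2 change of 0.70. Prmt1, which makes most of the asymmetric dimethylarginine of the cell, had signals of 5140.3, 5324 and 5271 in Fn testes, against 3303, 3279 and 2709 in Wt testes, a log2 difference of 0.77 (SE 0.09, limma adjusted p = 9.0e-05). Prmt2, a coactivator of nuclear receptors, rose by 0.97, Prmt3, which methylates a ribosomal protein, by 0.95 and Prmt9, which methylates a splicing factor, by 0.70, with Fn values above Wt values in each. Prmt7, which makes only monomethylarginine, was the one that fell, with signals of 1621, 1738 and 1636 in Fn testes, against 2788, 2808 and 2903 in Wt testes, a log2 difference of -0.77 (SE 0.08, limma adjusted p = 4.6e-05). Its second, dim probe set had -0.03 (adjusted p = 0.93), and 0 arginine methyltransferases fell by the second brightest probe sets or by the mean. Prmt5, which makes symmetric dimethylarginine and is needed in germ cells, had signals of 1827, 2071 and 1761 in Fn testes, against 1953, 1844 and 1822 in Wt testes, a log2 change of 0.01 with an interval of -0.21 to 0.22 (95%). Prmt6, which methylates histone H3, had 0.28 (adjusted p = 0.15), and its second probe set had -0.44 (adjusted p = 0.053).

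The lysine acetyltransferases split by gene, with 3 of 8 higher (37.5%, against 44.9% of all genes) and 3 lower (37.5%, against 24.7%). All 5 of the MYST family were called, 2 higher and 3 lower, where 44.9% of all genes rose and 24.7% fell. Kat8 (MOF), which acetylates histone H4 at lysine 16, had signals of 1079, 1112 and 1015 in Fn testes, against 2765, 2550.1 and 3046 in Wt testes, a log2 difference of -1.38 (SE 0.10, limma adjusted p = 3.4e-06). Kat5 (TIP60), the acetyltransferase of the NuA4 complex, had signals of 1337, 1426 and 1328 in Fn testes, against 3186, 3120.0 and 3796 in Wt testes, a log2 difference of -1.30 (SE 0.10, limma adjusted p = 5.6e-06), and a log2 change of -1.50 by its second probe set. Both enzymes act on histone H4, and their Fn values were well below all Wt values. Kat7 (HBO1), which acts with origins of replication and on H3 and H4, had signals of 2906, 3211 and 3048 in Fn testes, against 4669.5, 5022 and 5588 in Wt testes, a log2 difference of -0.73 (SE 0.09, limma adjusted p = 9.1e-05), while its second, dim probe set had -0.07 (adjusted p = 0.79). The other MYST genes, Kat6a (MOZ) and Kat6b (MORF), which act on histone H3, rose. Kat6a had signals of 1779.8, 1758 and 1722 in Fn testes, against 1295, 1251 and 1189.9 in Wt testes, a log2 difference of 0.49 (SE 0.09, limma adjusted p = 0.0010). Kat6b had signals of 963.7, 861.1 and 1131 in Fn testes, against 681.4, 507.4 and 669.7 in Wt testes, a log2 difference of 0.67 (SE 0.15, limma adjusted p = 0.0038). The mean of all probe sets, most of them under the level for testing, gave -0.30 (adjusted p = 0.49) for Kat6a and 0.09 (adjusted p = 0.82) for Kat6b. Of the acetyltransferases of the GNAT family, Kat2b (PCAF) rose by 0.70 (adjusted p = 3.8e-04), or 0.31 (adjusted p = 0.23) by its second probe set, and Kat2a (GCN5) had 0.17 with an interval of -0.06 to 0.40 (95%). Kat14, a subunit of the ATAC complex, had 0.14 (adjusted p = 0.31).

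Among the sirtuins, which use NAD to remove acyl groups, 4 of 7 fell (57.1%, against 24.7% of all genes) and 2 rose (28.6%, against 44.9%), and the median log2 change of -0.64 was the lowest of the classes. All 3 mitochondrial sirtuins fell. Sirt3, the main mitochondrial deacetylase, had signals of 898.7, 1106 and 955.2 in Fn testes, against 1337, 1779.7 and 1505 in Wt testes, a log2 difference of -0.64 (SE 0.13, limma adjusted p = 0.0022). Sirt4 had signals of 182.3, 275.5 and 229.0 in Fn testes, against 381.8, 404.9 and 297.1 in Wt testes, a log2 difference of -0.67 (SE 0.19, limma adjusted p = 0.013). Sirt5, which removes succinyl and malonyl groups, had signals of 178.2, 256.6 and 155.7 in Fn testes, against 291.6, 318.3 and 359.1 in Wt testes, a log2 difference of -0.74 (SE 0.20, limma adjusted p = 0.010), and -0.82 (adjusted p = 0.0032) by its second probe set, but -0.02 (adjusted p = 0.97) with the mean of all 3. Sirt2, a mainly cytoplasmic enzyme that acts on tubulin, had signals of 1695, 1633 and 2044 in Fn testes, against 3420.1, 2487 and 2958 in Wt testes, a log2 difference of -0.72 (SE 0.13, limma adjusted p = 0.0012). The nuclear Sirt1, which acts on p53 and histones, rose, with signals of 2602, 2544 and 2447 in Fn testes, against 1942, 1815 and 1607 in Wt testes, a log2 difference of 0.51 (SE 0.10, limma adjusted p = 0.0013). Sirt7 of the nucleolus rose by 0.57 (adjusted p = 0.0058), and Sirt6, which binds chromatin, had 0.08 (adjusted p = 0.75). Signals of Sirt1 and of Sirt7 were higher in every Fn array than in every Wt array, the reverse of the mitochondrial sirtuins.

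**Figure D4:**
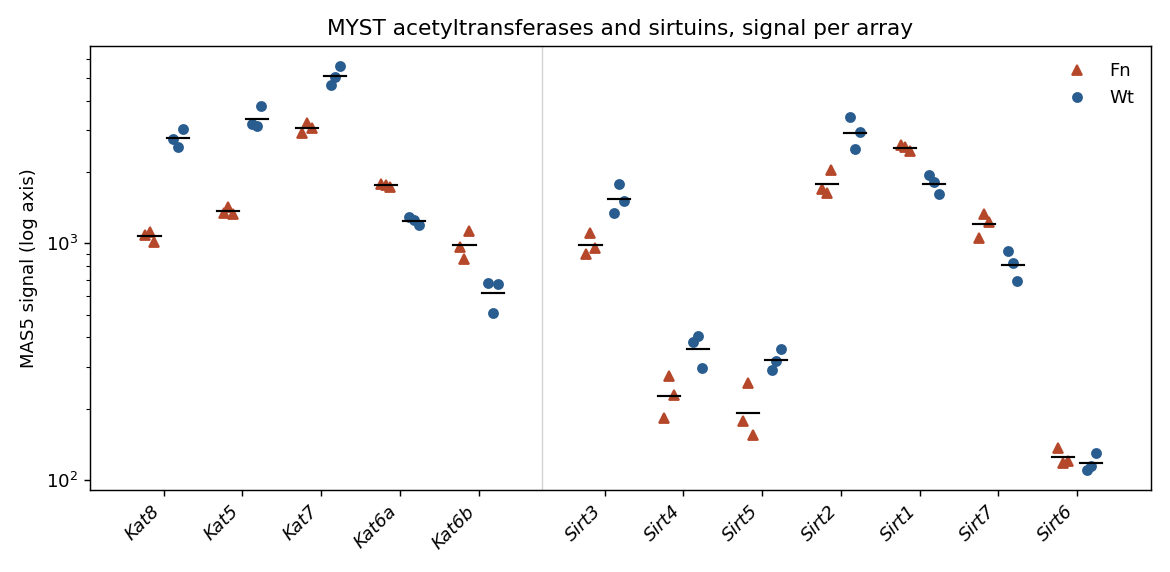
Signals (MAS5, log axis) of the 5 MYST acetyltransferase genes (left of the line) and the 7 sirtuin genes (right of it), in each of 3 Fn arrays (triangles) and 3 Wt arrays (circles) of P21 testes. Dashes give geometric means, and heights are not comparable between genes. Kat8, Kat5, Kat7 and Sirt3, Sirt4, Sirt5 and Sirt2 were lower, Kat6a, Kat6b, Sirt1 and Sirt7 higher in Fn testes, and Sirt6 overlapped.

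Of the 11 zinc-dependent deacetylases, 5 rose (45.5%, against 44.9% of all genes) and 1 fell (9.09%, against 24.7%), with a median log2 change of 0.52. The 5 include Hdac9, whose Wt geometric mean lay under the level for testing. Quantile normalization gave 3 higher and 0 lower, median centring, no filter and the mean of probe sets 3 higher each, and no intensity trend 0 lower. Leaving out Fn replicate 1 or Wt replicate 3 gave 3 higher, and leaving out Fn replicate 2 or Wt replicate 3 gave 0 lower. Hdac1 and Hdac2, which share the Sin3, NuRD and CoREST complexes, were called in opposite directions. Hdac1 had signals of 3935, 3387 and 4023 in Fn testes, against 5440.4, 4030.4 and 5704 in Wt testes, a log2 difference of -0.41 (SE 0.13, limma adjusted p = 0.022). Hdac2 had signals of 4097, 4078 and 4275 in Fn testes, against 2740.2, 2648 and 2472 in Wt testes, a log2 difference of 0.66 (SE 0.08, limma adjusted p = 8.0e-05), and 0.43 (adjusted p = 0.0048) by its second probe set. For Hdac1 the lowest Wt array was 4030.4 and the highest Fn array 4023, so the groups were barely apart. Hdac3, the deacetylase of the NCoR complex, had signals of 3059, 2531 and 3119.6 in Fn testes, against 2271, 1837 and 1982 in Wt testes, a log2 difference of 0.52 (SE 0.11, limma adjusted p = 0.0033), or 0.36 (adjusted p = 0.053) after median centring. Hdac9, a class IIa enzyme known from muscle and heart, was dim, with signals of 102.7, 79.3 and 93.4 in Fn testes, against 77.5, 30.0 and 24.5 in Wt testes. Its Wt geometric mean lay under the level for testing, and its Fn geometric mean was 1.90 times that level. It passed the filter through its Fn values alone, so its call (adjusted p = 0.030 from limma) is not firm. The log2 interval was 0.28 to 2.22 (95%). Hdac7, known from endothelium, rose by 0.48 (adjusted p = 0.033). Hdac4, Hdac5, Hdac10 and Hdac11 did not pass the test, among them Hdac5 with a log2 change of 0.13 and an interval of -0.18 to 0.45 (95%).

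The bromodomain readers had small changes, with 1 of 6 higher (16.7%, against 44.9% of all genes), 3 lower (50%, against 24.7%) and a median log2 change of -0.06. Both BET proteins read here fell. Brd2 had signals of 3411, 3479 and 3096 in Fn testes, against 4533, 5089.6 and 4619.7 in Wt testes, a log2 difference of -0.51 (SE 0.08, limma adjusted p = 5.3e-04), and its second probe set had -0.49. Brd3 had signals of 742.0, 882.9 and 782.8 in Fn testes, against 1011, 1414 and 1111 in Wt testes, a log2 difference of -0.54 (SE 0.14, limma adjusted p = 0.0078). The 4 probe sets of Brd3 did not move together, at -0.54 and -0.77 (adjusted p = 9.2e-04) for those that fell and 0.25 (adjusted p = 0.10) and 0.15 (adjusted p = 0.45) for the others, so its fall depends on the probe set. Brd9, a subunit of a SWI/SNF complex, fell by 0.27 and Brd1, a scaffold of MYST complexes, rose by 0.30, or had 0.14 (adjusted p = 0.36) after median centring. Brd7, another SWI/SNF subunit, had 0.14 with an interval of -0.09 to 0.37 (95%), and -0.49 (adjusted p = 0.037) by its second probe set. Brd8, a subunit of the NuA4 complex with Kat5, had 0.22 with an interval of -0.02 to 0.47 (95%).

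A list of other histone-modifying enzymes, their partners and bromodomain genes outside the rule held 51 genes that were tested. Of these, 32 rose (62.7%, against 44.9% of all genes) and 9 fell (17.6%, against 24.7%). Their median log2 change was 0.42, and that of all genes was 0.32. The 6 with the smallest p were 3 that fell and 3 that rose. Brdt, the BET protein of the testis that is needed for chromatin remodelling in spermatids, had signals of 1432, 1354 and 1279.7 in Fn testes, against 4848, 5054 and 5582 in Wt testes, a log2 difference of -1.93 (SE 0.09, limma adjusted p = 3.0e-07). Phf2, a demethylase of H3K9, had -2.14 and Baz1a, a subunit of the ACF remodeller, -1.49. Brwd1, a bromodomain gene needed for mouse spermiogenesis, rose by 1.47, or had 0.27 (adjusted p = 0.081) with the mean of its probe sets. The H3K36 methyltransferase gene Nsd3 rose by 1.38, but had 0.13 (adjusted p = 0.37) by its second probe set. The X-linked demethylase gene Phf8 rose by 0.97. Partners of the called members were among the list. Ash2l, a core subunit shared by the KMT2 and SET1 complexes, fell by 0.69, but had 0.14 (adjusted p = 0.53) by its second probe set. Rbbp5, another core subunit of them, rose by 0.86. The further core subunits Wdr5 and Dpy30 had 0.48 (adjusted p = 0.0011 from limma) and 0.07 (adjusted p = 0.56) by their brightest probe sets. Epc1, a subunit of NuA4, had -0.11 (adjusted p = 0.30), or -0.24 (adjusted p = 0.043) after 75th percentile centring.

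The calls of 43 of the 52 called members were kept when any 1 array was left out, and the other 9 lost theirs without at least 1 array. Ehmt2 was lost without Fn replicate 1 (adjusted p = 0.080 from limma), Fn replicate 2 (0.080) or Wt replicate 3 (0.10). Setd1b was lost without Fn replicate 1, 2 or 3 (0.097, 0.11 and 0.052) and without Wt replicate 2 or 3 (0.082 and 0.15). Hdac1 was lost without Fn replicate 2 (0.066), Wt replicate 1 (0.078) or Wt replicate 3 (0.084). The falls of these 3 are thus the least firm side of the opposite pairs. Sirt4 was lost without Fn replicate 1 (0.056) or Wt replicate 2 (0.051), and Kdm4c without Fn replicate 2 or 3 (0.056 and 0.087) or Wt replicate 3 (0.089). Hdac9 was lost without Fn replicate 1 or 3 (0.090 and 0.061) or Wt replicate 2 or 3 (0.083 and 0.10). Hdac7 was lost without Fn replicate 1 or 2 (0.11 and 0.10) or Wt replicate 1 or 3 (0.093 and 0.087). Brd1 was lost without Fn replicate 1 or 2 (0.078 and 0.058) or Wt replicate 1 or 2 (0.065 and 0.073). Brd9 was kept only without Fn replicate 2, and had adjusted p values of 0.054 to 0.17 without each of the other 5 arrays.

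The 26 members that were tested and not called had log2 changes of -0.26 to 0.83, Hdac8 aside. Among them Setd6 passed without Fn replicate 3 (0.48, adjusted p = 0.022 from limma), Hdac10 without Wt replicate 1 (1.15, adjusted p = 0.020) and Hdac11 without Wt replicate 1 (-0.48, adjusted p = 0.048). In 7 of them the Fn and Wt values did not overlap, where 75.6% of all genes tested, called or not, had no overlap. Of the 26, 9 were dimmer than the median probe set tested. Beside those described above, they were Kdm8, Kmt5c, Setd2, Setd3, Setd4 and Setd6. Of the 79 members, 44 had more than 1 probe set tested. Of 49 further probe sets of called members, 46 moved in the direction of the brightest and 25 were also called in it, and 0 members had probe sets called in both directions. With the mean of all its probe sets, the call was lost by Setd7 (adjusted p = 0.14 from limma), Setd1a (0.11), Prmt9 (0.087), Prmt7 (0.20), Kat7 (0.18), Suv39h2 (0.19), Ehmt2 (0.19) and Hdac2 (0.10). Brd3, Setd5 and Kmt2e lost theirs with the mean too, as did Kdm6a, Kdm7a, Sirt5, Kat6a and Kat6b, described above. After median centring Brd1 (0.36), Kdm4c (0.12) and Hdac7 (0.14) also lost theirs. Quantile normalization lost the calls of Kdm4c, Ehmt2, Hdac1, Hdac9 and Hdac7, testing without a filter those of Brd9, Setd1b, Hdac9 and Hdac7, and a fit without an intensity trend those of Brd9, Ehmt2, Setd1b and Hdac1.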

How the data were processed

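The deposited values are intensities (MAS5 signals, linear) for 6 arrays of RNA from whole P21 testes, scaled by the authors to one level (trimmed means of 498.4 to 498.6). No MAS5 version is given in the sources used here. Genes were read by probe sets that name 1 gene in the platform annotation (34945 of 45037). The 1 value of 0 was set to 0.1. A filter on all 45037 probe sets, whether or not they name 1 gene, kept the 27022 with a mean log2 signal not under the 40th percentile. These were fitted with limma 3.58.1 in R 4.3.3 (lmFit, then eBayes with trend), without a block. The paper used GeneSpring with a 2-fold threshold and names no test for these arrays. Intervals are moderated 95% intervals of the log2 change. The fit was tested on data drawn with the spread of the real arrays.

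The members, gene lists, rule for named genes and alternatives were chosen with earlier results of these data known. The rule named every called member changed by more than 2-fold, in each class up to 4 others with the smallest p and up to 2 bright members with the largest p, members under the filter, and the 6 genes of the wider list with the smallest p. Other members are given in the account of their class. Uty, Ash2l, Rbbp5, Wdr5, Dpy30 and Epc1 were chosen after their values were seen. RefSeq GRCm38.p6 gave chromosomes and promoters. Same-numbered Fn and Wt arrays deviated together from their group means (correlations of 0.131, 0.123 and 0.159, other pairs -0.150 to 0.0351), while no source states a pairing. With every same-numbered pair over 0.1, a fit with the number as a block was made as an alternative, and every printed p, SE and interval is from the fit without it. Spearman correlations were 0.951 to 0.961 within and 0.897 to 0.914 between genotypes. Precision is limited by the number of arrays. The replicates are labelled biological and the paper names separate RNA preparations, but not how many animals each came from, and p-values cover only the spread between these samples.

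Alternatives were quantile normalization, median and 75th percentile centring, no filter or the 60th percentile, a pseudocount of 16, no trend, a robust prior, the mean or the second brightest of a gene's probe sets, the replicate block, a threshold of 0.01 and leaving out each array. Leaving out members with 1 genotype under the filter level was added after the data were seen.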

Additional observations from a re-analysis of the deposited data

How the results depend on the processing

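With the replicate number as a block, 36 members rose and 16 fell, and no call of a member changed. The number that fell was 10 at an adjusted p under 0.01. Of rises beyond 2-fold, of which the deposited scale gave 9, median centring and 75th percentile centring each left 5, the mean of probe sets 4, and leaving out 1 array 5 to 13, the lowest without Wt replicate 3 and the highest without Wt replicate 1. With the mean of probe sets 24 rose and 11 fell of 74 tested. Of the 52 called members, 20 lost their call or turned with the mean or the second brightest probe set. Called members with 1 probe set had no other one to be read by, so the share among those with several is larger. With the mean, 49 of the 52 were tested. Those that turned were Kat6a, with -0.30 by the mean, and Brd3, with 0.25 by the second brightest. The 3 other scalings turned no called member. The uncalled members that changed sign were, by the mean of probe sets, Hdac11 (0.079), Setd3 (0.19), Prmt6 (-0.082), Kdm4a (-0.61), Kdm2a (-0.16), Brd8 (-0.032) and Brd7 (-0.18), and by the second brightest, Setd6 (-0.014), Prmt6 (-0.44), Hdac11 (0.42), Brd7 (-0.49) and Setd3 (0.48). With median centring they were Kmt2d (-0.027), Hdac5 (-0.024), Prmt5 (-0.15), Brd7 (-0.016), Sirt6 (-0.082), Setd4 (-0.069) and Kat14 (-0.015), with 75th percentile centring Prmt5 (-0.12), Sirt6 (-0.053) and Setd4 (-0.040), and with quantile normalization Kmt2b (0.0034), Setd4 (-0.051), Kdm1a (0.028) and Sirt6 (-0.085). With 1 array left out, Prmt5 ran from -0.062 to 0.055, Kdm8 from -0.18 to 0.060, Setd4 from -0.025 to 0.22 and Kmt2b from -0.12 to 0.070. Of the wider list, the second brightest probe set gave 0.14 for Ash2l and 0.36 for Epc1, and the mean 0.33 for Epc1. The causes were not tested. The stricter filter, the pseudocount and the robust prior changed no call of a called member that was tested.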
